A study of Mus musculus with 8 samples.

Results

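Potassium channel genes were examined in peak lists of H3K27ac, a histone mark of active promoters and enhancers, from mouse CD8+ T cells. The set holds 93 genes of 21631 protein-coding genes on chromosomes 1 to 19 and X. They are all genes in the RefSeq table whose symbol has Kcn followed by letters and a digit, so that pore-forming subunits and their auxiliary subunits are both included. The cells were taken from lymph nodes and spleens of C57BL/6 mice, stimulated with antibodies to CD3 and CD28, and treated for 48 h with EnPGC-1, which the labels class among PIPs, or with the vehicle DMSO. The 8 samples comprise 2 H3K27ac ChIPs for each treatment, 2 IgG control ChIPs of vehicle-treated cells and an input for each treatment. The labels do not say whether the samples of a group came from separate animals or cultures. The values used here are 2 lists of peak intervals on mm10, 1 per treatment. A value given "with DMSO" or "with EnPGC-1" is read from the list of that treatment, and the sequencing depth behind the lists is unknown here.

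Potassium channels let potassium leave the cell along its gradient and so set the membrane potential. In T cells a negative membrane potential keeps calcium flowing in through store-operated channels after the antigen receptor has been engaged, and the calcium then activates calcineurin and NFAT. The voltage-gated channel encoded by Kcna3 and the calcium-activated channel encoded by Kcnn4 are the classical potassium channels of T cells. Most other genes of the family are known from neurons, muscle, heart, kidney or endocrine cells. H3K27ac is deposited mainly by the acetyltransferases p300 and CBP around the starts of active genes and at enhancers. A listed interval means that the authors' peak caller found enrichment there, and a gene without an interval is not thereby shown to lack the mark.

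Promoter sequences are shown for Kcna3 and Kcnn4, the channels that define the potassium currents of T cells. Those of Kcnk5 and Kcnab2 are added because these members are also known from T cells and because the lists differed at their starts. Each sequence runs from 250 bases before to 50 bases after an annotated start, comes from RefSeq on GRCm38.p6 and is written 5′ to 3′ on the strand of the gene. Capitals mark matches on either strand to the GC box GGGCGG, the NFAT core GGAAA, the RUNX core TGTGGT, the E-box CACGTG, the AP-1 letters TGANTCA and the short CRE core TGACG.
Kcna3, chr3:107035912-107036211, plus strand: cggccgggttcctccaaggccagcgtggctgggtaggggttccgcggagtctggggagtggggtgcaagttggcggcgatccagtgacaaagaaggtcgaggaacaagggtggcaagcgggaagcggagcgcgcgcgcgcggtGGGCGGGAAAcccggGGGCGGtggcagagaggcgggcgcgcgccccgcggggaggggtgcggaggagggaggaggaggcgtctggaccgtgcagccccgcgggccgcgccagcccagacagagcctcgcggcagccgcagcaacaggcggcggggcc
Kcnn4, chr7:24370013-24370312, plus strand: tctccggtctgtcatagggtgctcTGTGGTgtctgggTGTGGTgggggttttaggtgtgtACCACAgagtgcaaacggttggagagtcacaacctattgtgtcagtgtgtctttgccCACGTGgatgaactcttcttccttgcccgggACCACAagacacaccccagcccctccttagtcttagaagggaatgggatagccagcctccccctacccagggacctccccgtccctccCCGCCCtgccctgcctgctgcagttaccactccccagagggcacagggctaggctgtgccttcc
Kcnk5, chr14:20181733-20182032, minus strand: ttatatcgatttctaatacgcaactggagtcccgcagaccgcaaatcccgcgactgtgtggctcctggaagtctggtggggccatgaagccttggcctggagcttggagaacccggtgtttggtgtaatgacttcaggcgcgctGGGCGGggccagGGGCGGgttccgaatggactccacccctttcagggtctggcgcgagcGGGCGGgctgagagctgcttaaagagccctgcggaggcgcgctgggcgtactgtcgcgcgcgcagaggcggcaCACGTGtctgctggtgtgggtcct
Kcnab2, chr4:152477500-152477799, minus strand: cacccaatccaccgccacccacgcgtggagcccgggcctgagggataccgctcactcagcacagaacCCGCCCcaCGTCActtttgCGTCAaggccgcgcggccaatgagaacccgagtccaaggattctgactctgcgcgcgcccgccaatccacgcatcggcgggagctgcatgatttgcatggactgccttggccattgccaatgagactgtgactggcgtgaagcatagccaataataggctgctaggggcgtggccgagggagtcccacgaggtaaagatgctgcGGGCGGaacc

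The Kcna3 promoter was rich in CG dinucleotides, with 37 in 300 bases, and held 2 GC boxes, the first of which overlapped its NFAT match. The Kcnn4 promoter held 6 CG dinucleotides and 4 RUNX matches. RUNX matches were found in 16.2% of the 68 members with a promoter in the table and in 14.8% of 17274 promoters of all genes. GC boxes were found in 52.9% of the members' promoters and in 46.9% of all. NFAT matches were found in 51.5% and 60.6%, short CRE cores in 25% and 24.0%, E-boxes in 7.35% and 8.01%, and AP-1 matches in 4.41% and 7.09%. The full CRE TGACGTCA, the NRF1 core GCGCATGC and the ERR element TCAAGGTCA were found in 0 of the 68 promoters, and in 2.36%, 3.64% and 0.336% of all promoters. A match describes the letters and is not a binding site.

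Kcna3 was covered with EnPGC-1 and not with DMSO. The gene lies on chromosome 3 from 107036162 to 107038129 and is 1.968 kb long. An EnPGC-1 interval from 107036282 to 107037913 covered 82.9% of the gene body, and another, from 107035621 to 107035984, lay just before the start and took in the first 73 bases of the promoter shown above. The start itself lay in the gap between them, 120 bases from the nearer interval. The authors' scores for the pair, taken to be −log10 q-values, were 5.88 and 5.07, above the list's median of 3.64. The DMSO list had 0 intervals in the gene and within 10 kb of it, and its nearest interval lay 52085 bases away. Within 1 kb of the gene ends the covered bases were 0 with DMSO and 1996 with EnPGC-1. The windows join at this short gene, so these are the bases of the same 2 intervals. Kcna3 had the highest covered share of the body of any member with EnPGC-1, at percentile 98.9 of all protein-coding genes. That percentile takes in genes of all lengths, and genes under 10 kb had a median of 17.0% covered with EnPGC-1. The 100 kb on each side of Kcna3 were sparse, with 0.640% covered with DMSO and 3.81% with EnPGC-1.

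Kcnn4 was covered in both lists. The gene lies on chromosome 7 from 24369826 to 24385212 and is 15.387 kb long. Its body held 6 DMSO intervals over 4021 bases (26.1%) and 9 EnPGC-1 intervals over 6854 bases (44.5%). The DMSO share stood at percentile 96.6 of all protein-coding genes and the EnPGC-1 share at 86.5. An interval of each list began at the same base, 24370239, and covered the last 74 bases of the promoter shown above, whose annotated start lies 437 bases inside the gene. The DMSO interval there was 758 bases wide with a score of 2.88, where the median of the DMSO list was 2.16. The EnPGC-1 interval was 359 bases wide with a score of 6.45, where the median of the EnPGC-1 list was 3.64. Scores were not compared between the lists. Within 1 kb of the gene ends the covered bases were 1223 with DMSO and 1268 with EnPGC-1. This order turned under every alternative run for it, though at the start alone only by 587 against 586. With EnPGC-1 the end bases were 359 in lists of equal size, 570 with the median score of each list as a minimum and 0 without intervals under 500 bp, against 1223 with DMSO in each of these settings, and with windows of 2500 bp they were 2848 against 3520. The EnPGC-1 list covered 1.70 times as many bases of the body as the DMSO list, against 3.63 times over the bodies of all members. With the EnPGC-1 list limited to as many intervals as the DMSO list, by score, the order turned, with 2200 covered body bases against 4021, and with the median score as a minimum it turned too, with 3213 against 3544, whereas at Kcna3 both EnPGC-1 intervals were kept. The region was covered widely with EnPGC-1, with 29.2% of the 100 kb on each side, against 7.32% with DMSO.

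**Figure D1:**
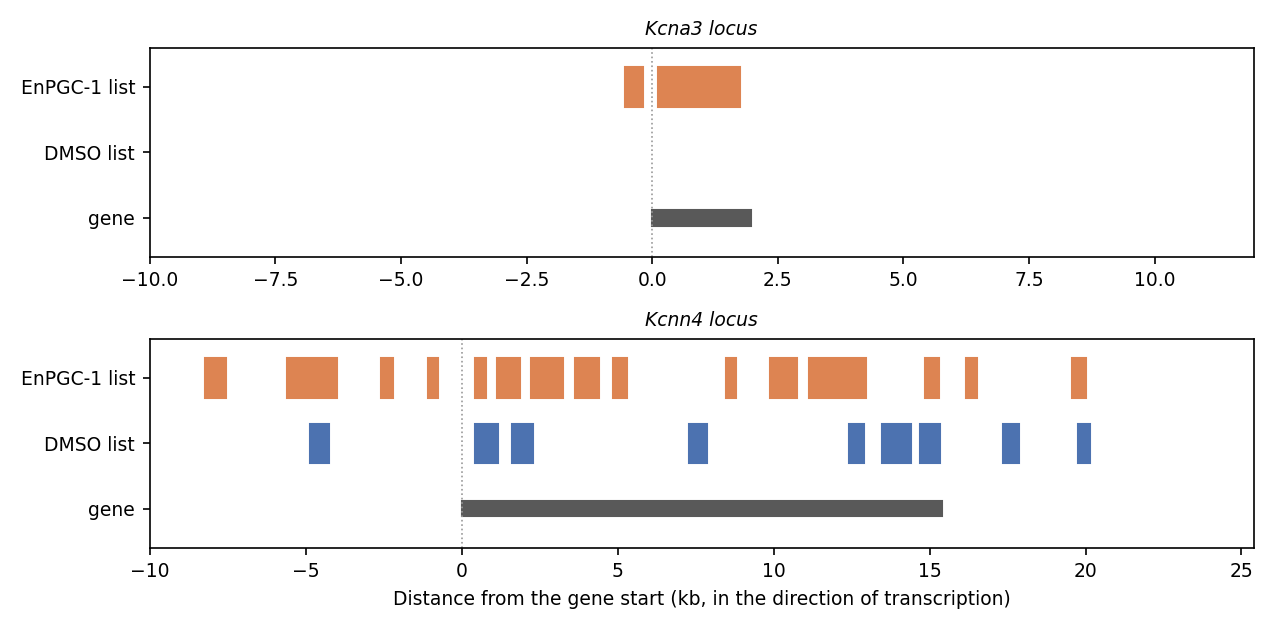
Intervals at Kcna3 and Kcnn4. Boxes are the intervals of each list and the grey bar is the gene, against the distance in kb from the gene start, with 10 kb on each side. Kcna3 has 2 EnPGC-1 intervals and 0 DMSO intervals, and Kcnn4 has 15 EnPGC-1 and 9 DMSO intervals in view.

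Other members described in T cells differed in the same comparison. Kcnab2, which encodes a beta subunit that binds voltage-gated channels such as that of Kcna3, was the most widely covered of them. Its body of 86.806 kb held 28 DMSO intervals over 20.7% of its length and 47 EnPGC-1 intervals over 64.2%. The 100 kb on each side of Kcnab2 were covered nearly as widely, at 19.1% with DMSO and 55.5% with EnPGC-1. Its end windows also reach gene ends of Chd5 and Nphp4. The promoter shown above was covered over 22 of its bases with DMSO and over all 300 with EnPGC-1, by an interval from 152475396 to 152478093. Kcnk5, a 2-pore-domain channel that carries a leak current, had 9 DMSO and 17 EnPGC-1 body intervals (9.11% and 27.5% of the body). At its start the lists went the other way: a DMSO interval from 20181600 to 20181942 covered 210 bases of the promoter, and the EnPGC-1 list covered 0, with its nearest interval 708 bases away. Kcnk18, the leak channel TRESK, had an interval over its start in both lists and 14.6% and 29.8% of its body covered in the DMSO and EnPGC-1 lists.

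Kcnk9, another leak channel, had 126 covered bases at its ends with DMSO and 877 with EnPGC-1. Kcne4, an auxiliary subunit that can dampen the Kcna3 channel, had 15 and 693. Kcna6 had 484 and 1176, Kcna2 452 and 727, and Kcnh2, the ERG channel of the heart, 901 and 2349. Kcna1 and Kcnc1 had 0 covered bases at their ends with DMSO and 70 and 1053 with EnPGC-1. Of the 12 members described in T cells, Kcna3 and Kcnn4 included, Kcna3, Kcna1 and Kcnc1 were thus marked at an end with EnPGC-1 alone (33.4% of all genes). The other 9 were marked in both (39.4%). With lists of equal size Kcna1 was marked in neither list and Kcna2 with DMSO alone. With the median score of each list as a minimum Kcna1 was again marked in neither, and Kcna6 with EnPGC-1 alone. The Kcna genes lie in clusters. From Kcna3 to Kcna10, with Kcna2 between them, the 159.56 kb on chromosome 3 held 5 DMSO intervals (1.35% covered) and 19 EnPGC-1 intervals (8.19%). The cluster of Kcna1, Kcna5 and Kcna6 on chromosome 6 held 16 (4.46%) and 48 (15.9%).

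Across the family, 50 of the 93 genes (53.8%) had an interval within 1 kb of a gene end with DMSO and 84 (90.3%) with EnPGC-1. Over all protein-coding genes these shares were 41.6% and 72.8%. Intervals of both lists marked 49 members (39.4% of all genes), the EnPGC-1 list alone marked 35 members, or 37.6% (33.4% of all genes), and the DMSO list alone marked Kcnv1 (2.19% of all genes). The share of members marked with EnPGC-1 alone was thus near the background, and the higher share of marked members was present in each list. The remaining 8 members, or 8.60%, were marked at an end in neither list, against 25% of all genes. They were Kcnk10, Kcnq3, Kcne3, Kcnmb2, Kcnh1, Kcnj13, Kcnj16 and Kcnj3. Without 1518 olfactory, vomeronasal, taste and trace amine receptor genes, which are rarely marked, the background rose to 44.4% with DMSO and 77.4% with EnPGC-1. The exact 95% Clopper-Pearson interval of the members' share, which covers counting error only, was 43.1% to 64.2% with DMSO and takes in that background. With EnPGC-1 it was 82.4% to 95.5%. Some members lie in clusters and the background was not matched for gene length, so these ranges are no test of the family against it.

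The EnPGC-1 list held 253423 distinct intervals and the DMSO list 81522. When the EnPGC-1 list was limited to its 81522 highest-scoring intervals, which left out those scoring under 4.21, the counts of marked members came close. They were 50 for DMSO and 52 for EnPGC-1 (41.6% and 40.5% of all genes). DMSO alone marked 17 (16.5% of all genes), and EnPGC-1 alone marked 19 (15.4%). The 19 members were among the 35 found with all intervals, and each was also marked with EnPGC-1 alone when each list was limited to its own median score and above. They included Kcna3, Kcna4, Kcna5, Kcnc1, Kcnd3, Kcng1, Kcnh8, Kcnn1, Kcnn3, Kcnj12, Kcnk6 and Kcnk7.

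The members' gene bodies together span 10.7 Mb. They held 464 distinct DMSO intervals over 248 kb and 1252 EnPGC-1 intervals over 900 kb, ratios of 2.70 in intervals and 3.63 in covered bases. Over all protein-coding gene bodies the ratios were 2.80 and 3.79, and over the whole lists 3.11 and 4.00. A body interval was listed for 77 members with DMSO (61.6% of all genes) and for 92 with EnPGC-1 (81.9% of all genes). The covered share was at least 2 times higher with EnPGC-1, or above 0 there and 0 with DMSO, for 86 members (69.9% of all genes). The DMSO list covered more of the body at 1 member (3.73% of all genes), the inward rectifier gene Kcnj2, with 554 bases against 490. At the gene ends the EnPGC-1 list covered more bases at 78 members (67.7% of all genes) and the DMSO list at 7 (7.36% of all genes), among them Kcnip1, Kcnj15, Kcnd1, Kcnj5 and Kcnv1. The median member had 3.71% of its body covered with DMSO and 20.1% with EnPGC-1, against 1.28% and 9.40% over all genes. Pooled over their length, where long genes weigh most, the members were covered less than all gene bodies, at 2.32% against 2.57% with DMSO and 8.44% against 9.74% with EnPGC-1. With lists of equal size the ratio of covered bases over the members was 1.58 (1.67 over all genes), and 36 members, or 38.7%, had a share at least 2 times higher with EnPGC-1 (30.0% of all genes).

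**Figure D2:**
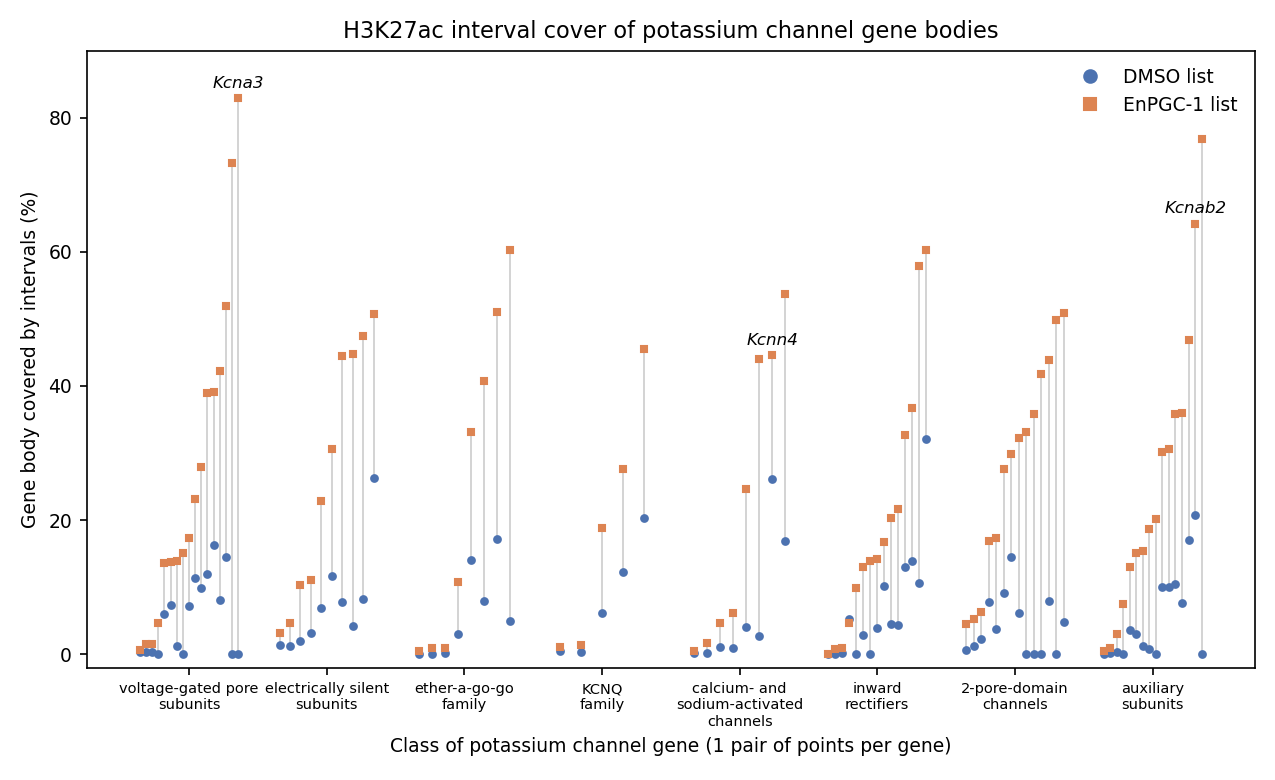
Percent of each gene body covered by intervals, for 93 potassium channel genes in 8 classes. Circles show the DMSO list and squares the EnPGC-1 list, joined for each gene and sorted by the EnPGC-1 share. Kcna3 stands at 0% and 82.9%, and every class has members below 5% in both lists next to widely covered ones.

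Length separated the members. Those under 10 kb had a median of 4.26% covered with DMSO and 38.8% with EnPGC-1, and those of 200 kb or more 0.292% and 1.49%. Over all genes the same classes had 0% and 17.0%, and 0.558% and 2.59%. By these medians members of the 3 classes below 200 kb were covered more than all genes of their length in both lists, and the longest members less. Pooled over length, members under 10 kb had 7.07% covered with DMSO, below the 7.61% of all such genes, and 35.4% with EnPGC-1, above their 25.9%. The longest was Kcnip4, at 1135.62 kb, with 0.0726% and 0.465% covered, followed by Kcnma1, Kcnq5, Kcnd2 and Kcnh7. Gene-end intervals of the EnPGC-1 list were found at 19 of 20 members under 10 kb, where all genes of that length had 63.6%, or 74.7% without receptor genes. They were found at 33 of 35 members of 10 to 50 kb (76.9% of all such genes), 17 of 20 of 50 to 200 kb (79.8%) and 15 of 18 of 200 kb or more (81.4%). Across the 93 members the covered share with EnPGC-1 and gene length had a Spearman correlation of −0.61, given as a description, since a share is divided by length and small genes consist mostly of their ends.

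**Figure D3:**
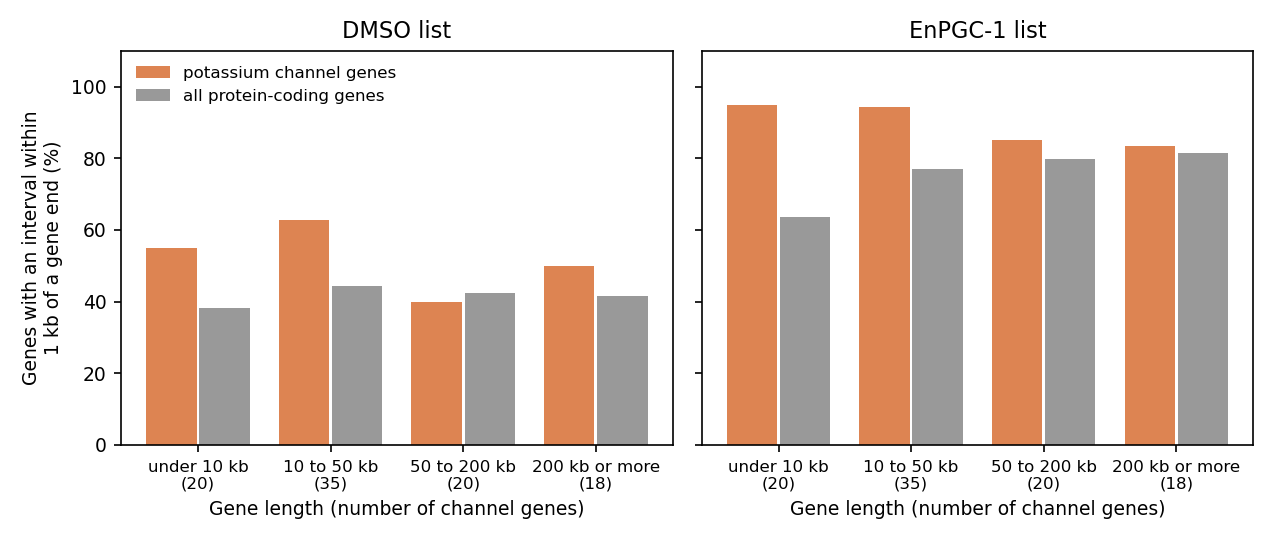
Percent of genes with an interval within 1 kb of a gene end, by gene length, for the DMSO list (left) and the EnPGC-1 list (right). Orange bars are potassium channel genes, with their number below, and grey bars all protein-coding genes. In the EnPGC-1 list the bars differ most for genes under 10 kb, at 95% and 63.6%, and least for genes of 200 kb or more, at 83.3% and 81.4%.

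Coverage per base was highest around gene starts, although most intervals lay elsewhere in the bodies: 74 DMSO and 180 EnPGC-1 intervals were at member gene ends. A strand was given for 68 members. Their start window of 1 kb on each side held an interval in 28 genes with DMSO (41.2%) and 59 with EnPGC-1 (86.8%), against 30.4% and 64.6% of all genes with a strand. The window at the far end held one in 16 (23.5%) and 39 (57.4%), against 19.9% and 45.1%. In the first 500 bases after the start, 12.2% of bases were covered with DMSO and 52.4% with EnPGC-1, near 12.5% with DMSO over all genes but above their 38.1% with EnPGC-1. From 1.5 to 2 kb after the start the members still had 8.52% and 35.6% covered, where all genes had 4.12% and 15%. These bins hold 68 genes, and single genes move them.

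**Figure D4:**
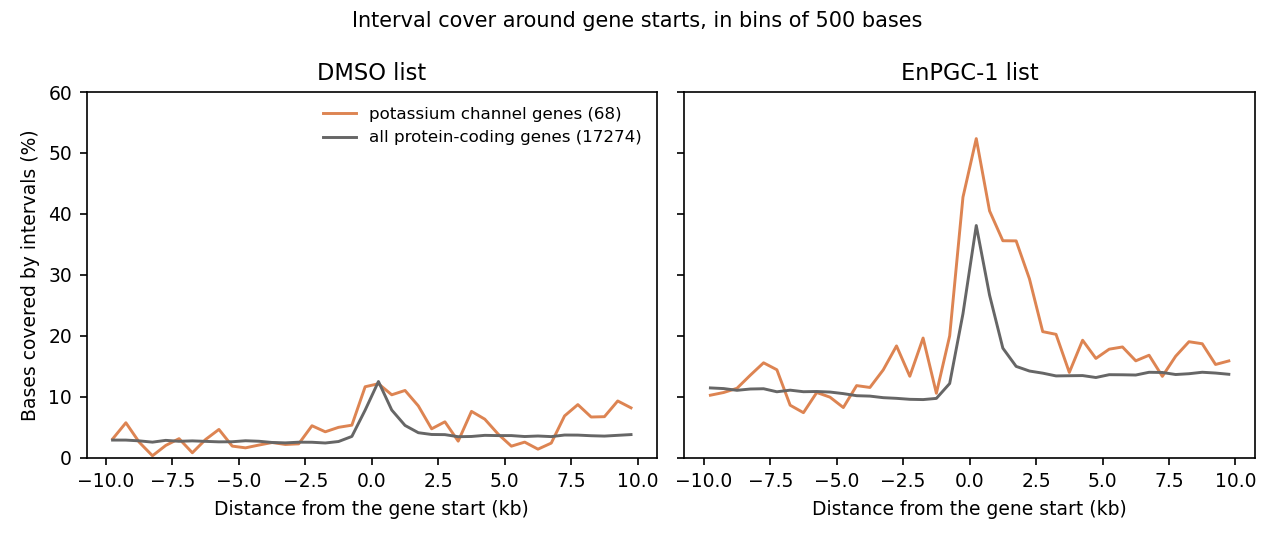
Percent of bases covered by intervals in bins of 500 bases, from 10 kb before to 10 kb after the gene start, for 68 potassium channel genes and 17274 protein-coding genes with a known strand. Both curves are highest in the bin after the start, and with EnPGC-1 the channel curve reaches 52.4% and stays above that of all genes to beyond 2 kb.

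Members whose promoters held few CG dinucleotides showed the widest gap from the background. The CG were counted in the annotated promoter and the intervals in the window at the gene end, which can be different sites. At Kcnj1 and Kcnj12, with 2 and 4 CG and marked with EnPGC-1, the promoter lay 21567 and 43240 bases from the gene end. Of 14 members with 0 to 4 CG in their 300 promoter bases, 4 had an interval in the start window with DMSO (28.6%) and 12 with EnPGC-1 (85.7%). Over all genes of that class the shares were 12.2% and 31%, or 15.6% and 38.7% without receptor genes. Of 27 members with 5 to 14, 12 and 21 had one (44.4% and 77.8%), where all such genes had 33.1% and 72.7%. Of 27 members with 15 or more, 12 and 26 had one, where all such genes had 39.9% and 80.4%.

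Among voltage-gated pore subunits (Kcna to Kcnd), all 17 genes had a gene-end interval with EnPGC-1 and 6 had one with DMSO, so that 11 were marked with EnPGC-1 alone. Over all genes, 72.8% had one with EnPGC-1, 41.6% with DMSO and 33.4% with EnPGC-1 alone. The classes hold 5 to 17 genes each, and their counts were not tested against these shares. With lists of equal size Kcna2, Kcnc2 and Kcnd1 were marked with DMSO alone, and Kcna1, Kcna7, Kcna10 and Kcnb2 in neither list. Kcna5, the delayed rectifier of atrial muscle, resembled Kcna3, with 0 DMSO intervals and 73.3% of its body covered with EnPGC-1. Kcna4 and Kcna10 also had 0 DMSO intervals, and 4.70% and 15.1% covered with EnPGC-1. Kcnc1, a fast-spiking channel of neurons, had 14.4% of its body covered with DMSO and 51.9% with EnPGC-1. Kcnc4 had the highest DMSO share of the class, at 16.3%, and 39.0% with EnPGC-1. Kcnd3 held 24 DMSO and 49 EnPGC-1 body intervals, and its ends had 0 and 1292 covered bases. Kcna7 had 9.83% and 27.8% of its body covered. Kcnd1, on chromosome X, had fewer end bases covered with EnPGC-1, 499 against 896. The long genes Kcnb2, Kcnc2 and Kcnd2 had under 2% covered in both lists.

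Among electrically silent subunits (Kcnf, Kcng, Kcns and Kcnv), which do not form channels alone and modify Kcnb channels, 8 of 10 had a gene-end interval with DMSO and 9 with EnPGC-1 (41.6% and 72.8% of all genes). Kcnf1 had the highest DMSO share, at 26.3%, and 50.8% with EnPGC-1. Kcng4 had 8.16% and 47.4%, and Kcns1 had 4.18% and 44.7%. Kcng1 and Kcns3 were marked at an end with EnPGC-1 alone. Kcng1 had 2 DMSO body intervals over 7.83% of its length and 11 EnPGC-1 intervals over 44.5%. Kcnv1 was the gene marked with DMSO alone, with 293 end bases. Its body had 256 covered bases with DMSO and 624 with EnPGC-1, and with windows of 2500 bp it was no longer marked with DMSO alone. With the median score of each list as a minimum Kcnv1 was marked in neither list, and with lists of equal size again with DMSO alone. Kcng2, Kcng3, Kcns2 and Kcnv2 had interval bases at their ends in both lists, between 300 and 914 with DMSO and between 464 and 1847 with EnPGC-1.

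In the ether-a-go-go family (Kcnh) and the KCNQ family, voltage-gated channels of slower kinetics, long genes were mostly covered less, but unevenly. Of the 8 Kcnh genes, 4 were marked at an end by DMSO intervals and 7 by EnPGC-1 intervals, and of the 5 KCNQ genes 4 were marked in each list. Over all genes these shares were 41.6% with DMSO and 72.8% with EnPGC-1. Kcnh3, a channel of forebrain neurons, had 914 body bases covered with DMSO and 11030 with EnPGC-1, or 4.99% and 60.3%. Kcnh2 had 17.2% and 51.1%, Kcnh4 7.86% and 40.8%, and Kcnh6 14% and 33.1%. The long genes Kcnh5, Kcnh7 and Kcnh8 stayed below 1% in both lists, although each had gene-end intervals with EnPGC-1, and Kcnh1 had 10.8% of its body and 0 end bases covered there. Kcnq1, which lies in an imprinted domain, held 38 DMSO intervals, the most of any member, and 80 EnPGC-1 intervals. These covered 6.15% and 18.8% of its 320 kb. The KCNQ family had the lowest ratio of covered bases between the lists of any class, at 2.71, and 0 of its members were marked at an end with EnPGC-1 alone (33.4% of all genes). Kcnq3 and Kcnq5 had below 1.5% covered in both lists.

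Channels gated by calcium or sodium (Kcnma, Kcnn, Kcnt and Kcnu) had a gene-end interval in 4 of 8 genes with DMSO and in 8 of 8 with EnPGC-1 (41.6% and 72.8% of all genes). The small-conductance channel genes Kcnn1 and Kcnn3 were marked at an end with EnPGC-1 alone, unlike their relative Kcnn4. Kcnn1 had 596 body bases covered with DMSO and 9920 with EnPGC-1, and Kcnn3 had 6125 and 37517. Kcnn2 had 323 end bases with DMSO and 1062 with EnPGC-1. Kcnt1, a sodium-activated channel of neurons, held the widest EnPGC-1 interval over any member, 6991 bases from 25897540 to 25904530 on chromosome 2, and had 53.7% of its body covered against 16.9% with DMSO. Kcnma1, the large-conductance channel, held 19 and 61 intervals over 1.09% and 4.61% of its length. Kcnt2 and Kcnu1 had below 1% covered with DMSO and 0.401% and 6.06% with EnPGC-1. With lists of equal size Kcnt2 and Kcnu1 were no longer marked at an end.

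Inward rectifiers (Kcnj) had a gene-end interval in 8 of 15 genes with DMSO and in 12 with EnPGC-1 (41.6% and 72.8% of all genes). Kcnj13, a channel of epithelia, was the single member with no interval at an end or in the body in either list. Kcnj11, the pore of the ATP-sensitive channel of beta cells, had the highest DMSO share of any member, at 32.1%, and 60.3% with EnPGC-1. Kcnj4 had 10.6% and 58.0%, and Kcnj12, marked at an end with EnPGC-1 alone, 13.9% and 36.7%. Kcnj6, a G-protein-gated channel of neurons, held 23 and 57 intervals, and Kcnj10 held 7 and 8. At Kcnj15 and Kcnj5 the DMSO list covered more end bases, 475 against 278 and 1876 against 1744. Kcnj1, Kcnj14 and Kcnj16 had 0 body bases covered with DMSO and 2630, 1154 and 486 with EnPGC-1. Kcnj8 and Kcnj9 had 4.34% and 13.1% covered with DMSO, and 21.6% and 32.6% with EnPGC-1. Kcnj3 had 2 EnPGC-1 intervals in 186.348 kb.

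Channels with 2 pore domains (Kcnk) conduct the leak current that sets the resting potential. Of 14 genes, 5 had a gene-end interval with DMSO and 13 with EnPGC-1, and 8 were marked with EnPGC-1 alone (41.6%, 72.8% and 33.4% of all genes). The ratio of covered body bases was 4.36, the highest of the classes. Kcnk6, Kcnk7, Kcnk15 and Kcnk16 had 0 DMSO bases in their bodies and 35.8%, 41.8%, 33.2% and 49.8% of them covered with EnPGC-1. Kcnk4, a mechanosensitive channel, had 4.83% and 50.8%, and Kcnk3, a channel closed by acid, 7.99% and 43.8%. Kcnk12 had 6.17% and 32.2%, and Kcnk1 had 3.71% and 17.3%. Kcnk2, Kcnk10 and Kcnk13 had 5.21%, 4.52% and 6.35% of their bodies covered with EnPGC-1, and between 0.628% and 2.23% with DMSO. With lists of equal size Kcnk3 and Kcnk13 were no longer marked at an end.

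Auxiliary subunits (Kcnab, Kcne, Kcnip and Kcnmb) had a gene-end interval in 11 of 16 genes with DMSO and in 14 with EnPGC-1 (41.6% and 72.8% of all genes). The highest-scoring interval over any member with DMSO lay in Kcnab2, from 152476612 to 152477069 on chromosome 4, with a score of 8.19, and 139 DMSO intervals of the list scored higher. In the EnPGC-1 list it lay in Kcne3, from 100178312 to 100178934 on chromosome 7, with a score of 11.5, and 407 intervals scored higher. That interval was the single one of Kcne3 in either list and lay away from its ends. The next scores were 6.50 at Kcnip1 and Kcnk5 and 5.77 at Kcnc1 among DMSO intervals, and 9.82 at Kcnab2 and Kcnmb2, 9.44 at Kcnmb3 and 9.30 at Kcnn3 among EnPGC-1 intervals. Kcne1l, on chromosome X, had 0 DMSO bases and 76.9% of its short body covered with EnPGC-1. Kcnip3, a calcium sensor also known as the repressor DREAM, had 0 end bases with DMSO and 2642 with EnPGC-1. Kcnip1 held 22 DMSO and 81 EnPGC-1 intervals, but its end bases were 744 and 503. Kcnip2, which pairs with Kcnd channels in the heart, had 7.59% and 35.9% of its body covered. Kcnab3 had 10.5% and 35.8%, Kcne1 9.98% and 30.2%, and Kcne2 0.783% and 18.6%. The beta subunits of the large-conductance channel, Kcnmb1 to Kcnmb4, had between 0 and 3.07% covered with DMSO and between 3.00% and 20.1% with EnPGC-1. Kcnab1 had below 1% in both.

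Most DMSO intervals of the family lay where the EnPGC-1 list also had one. Of the 464 DMSO intervals over member bodies, 353 shared at least 1 bp with the other list (76.1%, exact 95% Clopper-Pearson interval 71.9 to 79.9, which covers counting error only), against 76.6% over all gene bodies. In the other direction 347 of the 1252 did (27.7%, 25.3 to 30.3), against 26.7%. Member intervals had a median width of 450 bases with DMSO and 569 with EnPGC-1. Across the 93 members the body shares of the 2 lists had a Spearman correlation of 0.55, and the EnPGC-1 share of the body and of the 100 kb on each side one of 0.69. These are descriptions over genes that share base composition, mappability and neighbourhood. The body share was above that of its flanks at 57 members with DMSO (61.3%, against 42.6% of all genes) and at 67 with EnPGC-1 (72%, against 52.3%). A gene without a body interval cannot stand above its flanks, and fewer members than genes at large lacked one. Body intervals were listed for 82.8% of members and 61.6% of all genes with DMSO, and for 98.9% and 81.9% with EnPGC-1.

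Some end windows reach another gene. At 19 members the window of 1 kb also took in the end window of another protein-coding gene, as at Kcnj14 and Grwd1 or Kcnmb3 and Pik3ca. Of these 19, all were marked with EnPGC-1 and 15 (78.9%) with DMSO. Of the 74 members without such a neighbour, 65 (87.8%) were marked with EnPGC-1 and 35 (47.3%) with DMSO. Of 1298 EnPGC-1 intervals at member bodies or ends, 5 were counted for more than 1 member, and of 487 DMSO intervals 0.

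Other channel families were marked to differing degrees, where all genes had 41.6% with DMSO and 72.8% with EnPGC-1. Calcium channel genes were marked at an end in 16 of 26 genes with DMSO (61.5%) and in all 26 with EnPGC-1. Chloride channel genes were marked in 5 of 21 (23.8%) and 14 (66.7%), TRP channel genes in 8 of 24 (33.3%) and 18 (75%), and sodium channel genes in 6 of 14 (42.9%) and 11 (78.6%). GABA-A receptor genes were marked in 4 of 19 (21.1%) and 14 (73.7%), and glutamate receptor genes in 11 of 16 (68.8%) and 13 (81.2%). The genes that share the calcium and membrane potential pathway of T cells were marked much as the potassium channels were, in 23 of 40 (57.5%) with DMSO and 35 (87.5%) with EnPGC-1. The store-operated channel gene Orai1 had 0 end bases with DMSO and 2028 with EnPGC-1, whereas its calcium sensor Stim1 had 0 in both. The calcineurin gene Ppp3cb was marked with DMSO alone, with 299 end bases. Nfatc1 had 709 and 737.

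**Figure D5:**
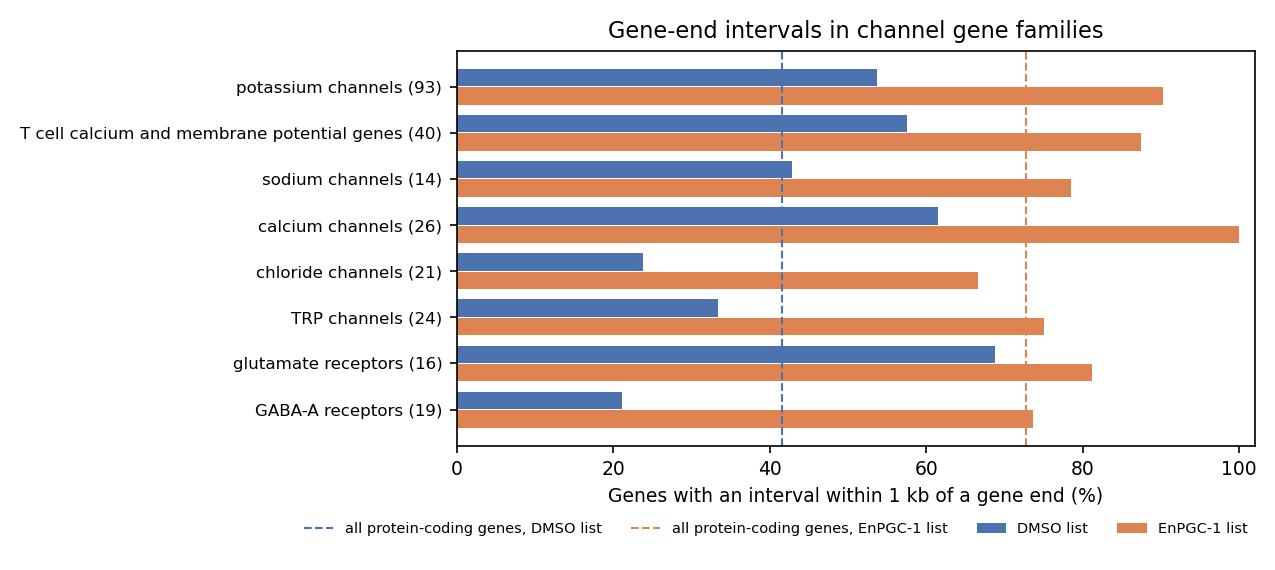
Percent of genes with an interval within 1 kb of a gene end, in potassium channels and 7 comparison lists, with the number of genes in brackets. Blue bars show the DMSO list, orange bars the EnPGC-1 list, and dashed lines the shares over all protein-coding genes, 41.6% and 72.8%. Potassium channels stand at 53.8% and 90.3%.

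Marker genes of the labelled cells and of other cell types were counted in the same way. Of 12 genes of CD8 T cells, 4 were marked at an end with DMSO (Cd2, Cd3e, Cd8b1 and Zap70) and 9 with EnPGC-1, where all genes had 41.6% and 72.8%. Cd28, Cd3d and Ptprc had 0 end bases in both. Markers of neurons were marked in 1 of 6 genes with DMSO and 6 of 6 with EnPGC-1, and those of muscle in 3 and 6 of 6. Markers of NK cells were marked in 0 of 3 genes in both, those of B cells in 2 and 4 of 5, those of myeloid cells in 3 and 4 of 5, and those of CD4 T cells in 3 and 2 of 3. Summed per gene, end bases ranged from 0 to 602 for the CD8 T cell markers with DMSO and from 0 to 2673 with EnPGC-1, against 0 to 1876 and 0 to 2974 for the potassium channels. Markers of cell types other than CD8 T cells thus also held gene-end intervals, and the part of other cells, depth or the threshold of calling in the values of the channel genes was not tested. Cd8a had 0 end bases with DMSO and 243 with EnPGC-1. Among the CD4 T cell markers Cd4 had 1098 and 0, Foxp3 930 and 1233, and Zbtb7b 302 and 1029. No per-sample values were used, so no spread between replicates could be set beside any difference between the lists, and no test between treatments was made.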

How the data were processed

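H3K27ac ChIP, IgG ChIP and input DNA were sequenced, and samples were grouped by the treatment and antibody in their titles. The submitters' processing notes name Trimmomatic 0.38, Bowtie 1.1.2, Picard 0.118, MACS2 2.2.2.20160309, ChIPseeker 11.16.1 and mm10. How peaks were called, against which control and on pooled or single samples, is not given in the sources used here. The authors deposited 1 peak list per treatment, whose score is taken to be a −log10 q-value because its lowest value is 1.31 in both. It was used within a list only. The 84538 DMSO and 329623 EnPGC-1 entries held 81522 and 253423 distinct intervals, and the highest score was kept where coordinates repeated.

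Gene positions came from a RefSeq table of GRCm38.p6, the assembly that mm10 denotes. Intervals were counted with at least 1 bp within 1 kb of either gene end or over the body, and coordinates are 1-based. Strand came from the promoter table for 68 members. Calculations used Python 3.11.15 with numpy 2.4.6 and scipy 1.17.1. Tested on simulated data, covered bases and interval counts differed from direct enumeration in 0 of 1000 genes. The alternatives tried were the median score as a minimum, lists of equal size, a minimum width of 500 bp, merging within 1000 bp, windows of 500 and 2500 bp, the start alone, chromosome X left out and a stricter overlap. Members without a neighbouring gene end and a background without receptor genes were added after seeing the data. The members, gene lists and rules were chosen with earlier results of these data known. The rule for named genes took the members described in T cells, the most covered members of each class, those marked in the DMSO list alone or in neither, those with the highest-scoring intervals and the longest. Every other member, and the genes of other lists apart from Orai1, Stim1 and Ppp3cb, were chosen after their values were seen. No proteins were used here. Some members that the rule would name are counted in the totals but not reported by name here.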

Additional observations from a re-analysis of the deposited data

How the results depend on the processing

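No paired analysis was possible because each treatment has 1 list, with no values per sample, and no replicate could be left out for the same reason. With lists of equal size, the members marked at an end were 52 with EnPGC-1, 19 with EnPGC-1 alone and 17 with DMSO alone, and 36 had a body share at least 2 times higher with EnPGC-1. The bodies then held 413 EnPGC-1 intervals, the ratio of covered bases was 1.58, and Kcnn4 had 359 end and 2200 body bases with EnPGC-1, below its 4021 DMSO body bases. With the median score as a minimum, 4 members were marked with DMSO alone, and Kcnv1 was not among them. The bodies then held 288 DMSO and 643 EnPGC-1 intervals, and Kcnn4 had 570 end and 3213 body bases with EnPGC-1. Without intervals under 500 bp, 29 members were marked with DMSO and 2 with DMSO alone, the bodies held 197 and 733 intervals, and Kcnn4 had 0 end bases with EnPGC-1. With windows of 500 bp, 4 members were marked with DMSO alone, Kcna3 had 987 end bases with EnPGC-1, and Kcnn4 had 528 with DMSO and 514 with EnPGC-1. With windows of 2500 bp, 0 members were marked with DMSO alone, and Kcnn4 had 3520 and 2848 end bases. At the start alone, which could be tried for the 68 members with a strand and so leaves out 25, Kcnv1 among them, 28 members were marked with DMSO and 0 with DMSO alone (33 and 0 of the same 68 at either end). Kcna3 then had 1244 bases with EnPGC-1, and Kcnn4 had 587 and 586. When 50% of a DMSO interval had to be covered, 63.1% overlapped. The other counts and bases stayed within 1.5 times the value reported, for example 836 EnPGC-1 body intervals after merging, 54 members with a DMSO body interval without those under 500 bp, 47 members marked with EnPGC-1 alone in that setting and 25 with windows of 2500 bp, and a ratio of covered bases of 4.74 without narrow intervals. Kcna3 had 0 DMSO bases in every setting run for it. Leaving out chromosome X left 49 and 82 members marked. The cause of these shifts was not tested.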
